A study of Homo sapiens with 6 samples.

Results

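The AP-1 transcription factors were followed in quiescent human RPE1 cells treated with combretastatin A4 (CA4), a small molecule that binds tubulin and takes microtubules apart. The 10 genes were chosen by symbol, with earlier results of these data known. They are FOS, FOSB, FOSL1 and FOSL2 of the FOS family, JUN, JUNB and JUND of the JUN family, and ATF3, BATF3 and MAFF. Each symbol matched 1 of the 38900 Ensembl rows of the deposited table, and all 10 averaged 10 or more normalized counts, the minimum for a test, which put them among the 13928 genes tested. There were 6 polyA RNA sequencing libraries of hTERT RPE1, a retinal pigment epithelial line made immortal with telomerase. In both groups the cells were held at full confluency for 5 days and then received fresh medium for 6 hours, with 100 nM CA4 in 3 libraries and with 0.1% DMSO, the baseline, in the other 3. Values of a gene are given in the order of replicates 1, 2 and 3. Neither the labels nor the series text say whether replicates were separate cultures, so p-values measure the spread between these libraries, which may be technical.

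AP-1 is a dimer of basic leucine zipper (bZIP) proteins. JUN proteins pair with themselves or with FOS proteins, whereas FOS proteins do not form stable pairs of their own. ATF3 and BATF3 also pair with JUN proteins, and MAFF is a small MAF protein that lacks a transactivation domain. The dimers bind the TPA response element, searched here as TGANTCA with any base at N. Some bind the cyclic AMP response element, TGACGTCA. Several members are immediate early genes, whose transcription is switched on by growth factors, stress and mitogen-activated protein (MAP) kinases without new protein synthesis, and whose mRNAs are short lived.

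Promoter sequence came from RefSeq on GRCh38.p14, as the 250 bases before the annotated start of 1 transcript per gene, and 8 of the 10 genes had an entry. JUNB and JUND are shown because they are close relatives whose windows held no base of a GENCODE 29 exon. Capitals mark a match on either strand to TGANTCA, TGACGTCA, the CArG box (bound by serum response factor), the kappa B site or the MAF recognition element (MARE), and the sequences run 5′ to 3′ on the gene's strand.
JUNB, chr19:12791236-12791485, plus strand: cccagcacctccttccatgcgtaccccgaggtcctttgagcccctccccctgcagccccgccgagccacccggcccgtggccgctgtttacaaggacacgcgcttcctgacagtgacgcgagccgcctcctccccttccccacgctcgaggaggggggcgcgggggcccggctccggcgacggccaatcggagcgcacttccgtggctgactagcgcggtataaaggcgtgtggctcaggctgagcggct
JUND, chr19:18281623-18281872, minus strand: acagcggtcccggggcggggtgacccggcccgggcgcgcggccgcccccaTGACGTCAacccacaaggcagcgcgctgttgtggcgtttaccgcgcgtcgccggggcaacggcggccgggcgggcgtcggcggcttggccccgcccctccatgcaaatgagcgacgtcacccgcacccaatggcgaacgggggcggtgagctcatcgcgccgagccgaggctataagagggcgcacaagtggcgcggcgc
JUNB held no match to any of these letters in the window, and JUND held 1 TGACGTCA from 200 to 193 bases before its start. MAFF, which rose, held the same 8 letters from 54 to 47 bases before its start, shown with 10 bases on each side. All 250 bases of the MAFF window lie in GENCODE 29 exons, so the match is in annotated exon there.
MAFF, chr22:38201930-38201957, plus strand: gccgggtcggTGACGTCAccgcatgact
TGACGTCA was present in 1.77% of 27305 promoter windows of this length, and TGANTCA in 6.6%. Of the 8 members with a window, 0 held TGANTCA, 0 a CArG box and 2, FOSB and MAFF, a kappa B site, which 10.4% of all windows held. CArG boxes were in 1.14% of all windows, and the full-length MARE was in 0 of the 27305. Exon bases of GENCODE 29 also made up 250 bases of the JUN window, 73 of ATF3, 54 of FOS, 35 of FOSL2 and 1 of FOSB. A match was thus present in a member that rose and in a member that did not pass the test, and it is a description of letters only. Sites outside the window or with other letters were not searched, so no match does not mean no site.

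At 6 hours 4 of the 10 genes were higher in CA4 by limma's moderated test at an adjusted p under 0.05 over all tested genes. These were ATF3, MAFF, FOSL2 and JUNB. Among all 13928 genes 4.94% passed in either direction, 2.97% of them higher and 1.97% lower in CA4. No member was called lower in limma, edgeR or DESeq2, and at an unadjusted p under 0.05 limma counted 7 members higher and 0 lower, where 23.0% of all genes passed in either direction. All 3 CA4 libraries lay above all 3 DMSO libraries in 6 members, against 14.3% of all tested genes, and below them in none, against 13.4%, so that groups were apart in 27.7% of all tested genes. The fitted log2 fold change was above 0 in 9 of the 10 members, with a median of 0.71, and in 48.9% of all tested genes, with a median of -0.0082. These counts describe the list and carry no test of it. Without DMSO replicate 1 the count was 6 of 10, with FOSL1 and JUN added, and without any 1 of the other 5 libraries it was 0 or 1.

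**Figure D1:**
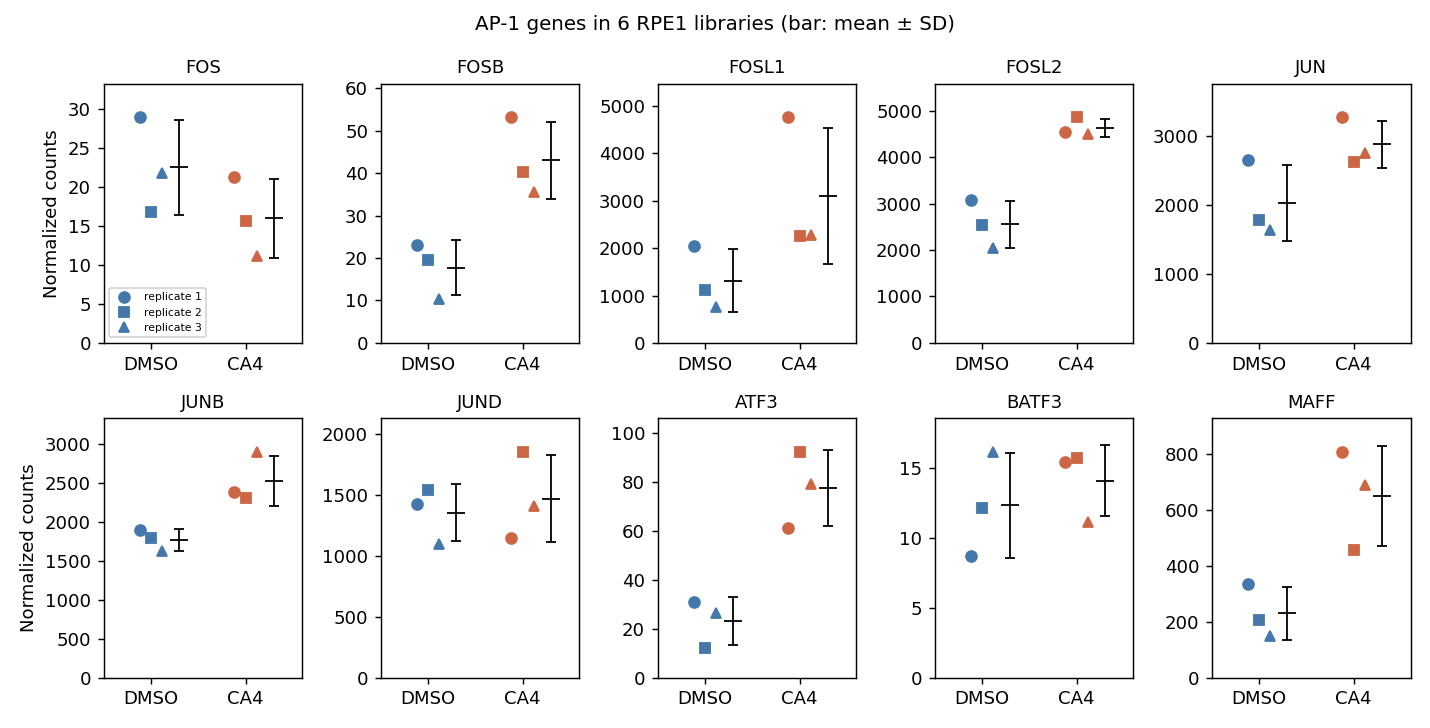
Normalized counts (vertical axes, from 0) of the 10 AP-1 genes in the 3 DMSO and 3 CA4 libraries; the marker shape is the replicate number and the bar beside each group is its mean ± SD. The groups are apart in FOSB, FOSL1, FOSL2, JUNB, ATF3 and MAFF and overlap in FOS, JUN, JUND and BATF3.

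FOS, on chromosome 14 (chr14:75278774-75282230, GRCh38, GENCODE 29, as for the other genes), encodes the founding partner of JUN and is a textbook immediate early gene. It was barely read at 6 hours. The DMSO libraries had 28.97, 16.8 and 21.8 normalized counts and the CA4 libraries had 21.3, 15.7 and 11.1. The groups overlapped, and the lowest library was CA4 replicate 3 with 10 recovered reads. Its fitted log2 change was -0.48 (SE 0.40, limma adjusted p = 0.529), with a 95% interval from -1.42 to 0.46. At 10 to 30 reads per library, the values were compatible with any change inside that interval.

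FOSB (chr19:45467995-45475179), another immediate early FOS protein, was read about as rarely as FOS in DMSO. It had 23.2, 19.6 and 10.4 normalized counts in the DMSO libraries and 53.2, 40.4 and 35.7 in the CA4 libraries. Every CA4 library was above every DMSO library. A log2 fold change of 1.28 with SE 0.38 and a 95% interval from 0.39 to 2.18 did not pass (limma adjusted p = 0.0998).

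FOSL1 (chr11:65892049-65900573) encodes FRA1, a FOS protein without the strong transactivation domain of FOS, and accumulates later than FOS after stimulation. Its values were 2053, 1119 and 761 normalized counts in the DMSO libraries. In the CA4 libraries they were 4757, 2253 and 2280. The groups did not overlap, although DMSO replicate 1 lay just below CA4 replicate 2. The coefficient of variation between libraries was 50.9% in DMSO and 46.4% in CA4, the largest of the 10 genes in both groups. With SE 0.41 and a 95% interval from 0.32 to 2.21, its log2 fold change of 1.27 did not pass (limma adjusted p = 0.116), and without DMSO replicate 1 it was 1.65 with a limma adjusted p of 0.0401.

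FOSL2 (chr2:28392448-28417312) encodes FRA2, the other FOS-related antigen. It rose from 3078, 2530 and 2048 normalized counts in the DMSO libraries to 4541, 4856 and 4506 in CA4. The CA4 libraries lay close together, with a coefficient of variation of 4.16% against 20.2% in DMSO. This was a 1.84-fold rise, 0.88 on the log2 scale (SE 0.14), with the smallest limma adjusted p of the 10 genes, 0.0198. The call was lost in 5 of the 6 fits without 1 library, with limma adjusted p-values up to 0.0797, and was kept without DMSO replicate 1.

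JUN (chr1:58780788-58784327), the founding JUN protein and a target of the JUN N-terminal kinases, differed less. The DMSO libraries had 2653, 1781 and 1642 normalized counts, and the CA4 libraries had 3268, 2615 and 2747. The overlap was confined to DMSO replicate 1, which lay just above CA4 replicate 2. With SE 0.18 and a 95% interval from 0.10 to 0.96, its log2 fold change of 0.53 did not pass (limma adjusted p = 0.140). Without DMSO replicate 1 it was 0.74 with a limma adjusted p of 0.0200.

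JUNB (chr19:12791496-12793315) can oppose JUN at some promoters and is itself an immediate early gene. It rose from 1892, 1789 and 1623 normalized counts in the DMSO libraries to 2379, 2306 and 2897 in CA4. All CA4 libraries were higher, by 0.51 on the log2 scale (SE 0.11, limma adjusted p = 0.0471), about the size fitted for JUN but with less spread. The call was lost in 5 of the 6 fits without 1 library, with limma adjusted p-values up to 0.160, and was kept without DMSO replicate 1. In limma it was also lost with quantile normalization (adjusted p = 0.0641) and with libraries scaled to the same total (0.0727). The same held with no filter (0.0542) and without the variance trend (0.108). In GENCODE 29, 259 exon bases of JUNB, 14.2%, lie in HOOK2 on the opposite strand, and no use of strand is stated. HOOK2 had 226 to 309 normalized counts in DMSO and 257 to 310 in CA4.

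JUND (chr19:18279760-18281622) is the JUN protein expressed in resting cells and is less inducible than the others. Its values were 1424, 1544 and 1097 normalized counts in the DMSO libraries and 1149, 1851 and 1408 in the CA4 libraries. The groups overlapped throughout, and the log2 fold change was 0.10 (SE 0.20, limma adjusted p = 0.798). The 95% interval of the fold ran from 0.784 to 1.47, which leaves out a 2-fold rise.

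ATF3 (chr1:212565334-212620777) encodes a stress-induced factor that represses as a homodimer and pairs with JUN proteins. It rose from low levels, with 30.9, 12.2 and 26.6 normalized counts in the DMSO libraries and 60.9, 92.0 and 79.1 in the CA4 libraries. The lowest CA4 library was well above the highest DMSO library. The rise of 1.77 on the log2 scale (SE 0.39, limma adjusted p = 0.0471) was the largest of the 10 genes and higher than that of 99.3% of all tested genes. These values rest on 13 to 82 reads per library. The call was lost in 5 of the 6 fits without 1 library, with limma adjusted p-values up to 0.138. It was also lost with edgeR on the recovered reads, with an adjusted p of 0.0520. In limma it was lost among genes that averaged 50 or more (adjusted p = 0.0516), with no filter (0.0634) and without the variance trend (0.0807).

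BATF3 (chr1:212686418-212699985), a small bZIP factor best known in dendritic cells, lies 65641 bases beyond ATF3 on the same chromosome. It had 8.69, 12.2 and 16.1 normalized counts in the DMSO libraries and 15.5, 15.7 and 11.1 in CA4. The groups overlapped, and 9 to 17 reads per library left a 95% interval of the fold from 0.576 to 2.30 (limma adjusted p = 0.823).

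MAFF (chr22:38200767-38216511) rose from 336, 206 and 148 normalized counts in the DMSO libraries to 808, 457 and 691 in CA4. All CA4 libraries were above all DMSO libraries. The 2.91-fold rise was 1.54 on the log2 scale (SE 0.32, limma adjusted p = 0.0413). The call was kept without DMSO replicate 1 and without CA4 replicate 2, and was lost in the other 4 fits without 1 library, with limma adjusted p-values up to 0.141.

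**Figure D2:**
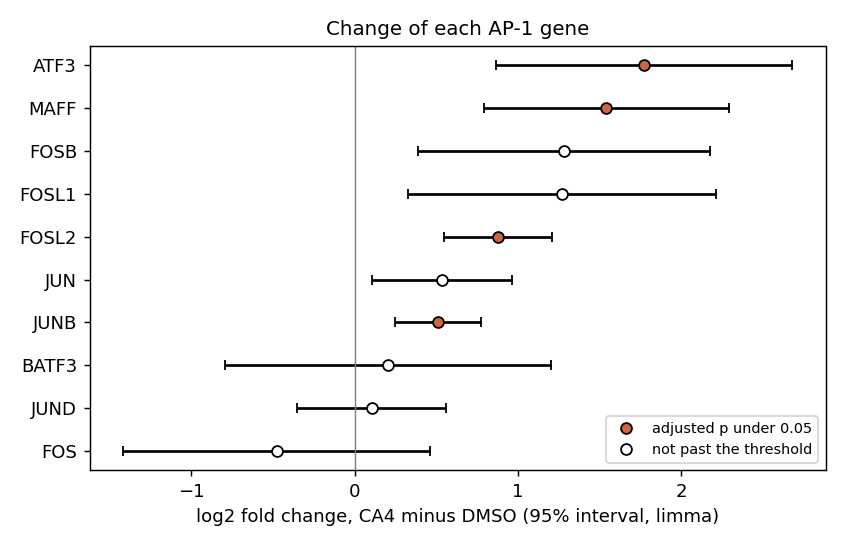
limma log2 fold change of CA4 against DMSO (horizontal axis, bars are 95% intervals) for the 10 AP-1 genes (vertical axis); filled points passed an adjusted p of 0.05. ATF3, MAFF, FOSL2 and JUNB are filled, and the intervals of BATF3, JUND and FOS cross 0.

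Levels were set side by side per kilobase of merged GENCODE 29 exons, since the genes differ in length. That length counts every annotated isoform and so understates the level of genes with long minor isoforms. In DMSO the order was JUNB at 971 ± 74.6, JUND at 727 ± 124, FOSL1 at 695 ± 354, JUN at 572 ± 155 and FOSL2 at 357 ± 72.0 normalized counts per kilobase (SD, n = 3 each). MAFF followed at 41.0 ± 17.2, and FOS at 6.96 ± 1.88, ATF3 at 5.75 ± 2.43, BATF3 at 4.54 ± 1.37 and FOSB at 3.20 ± 1.18 (SD, n = 3 each). Libraries of neighbours overlapped from JUND to FOSL1 and JUN, and from FOS down to FOSB. FOSL1, at 403 to 1088, also overlapped JUNB and FOSL2. In CA4 the order began with FOSL1 at 1641 ± 762 and JUNB at 1389 ± 177, which overlapped, then JUN at 813 ± 97.4, JUND at 789 ± 191 and FOSL2 at 648 ± 26.9 (SD, n = 3 each). JUND overlapped both JUN and FOSL2, which did not overlap each other. Below MAFF at 116 ± 31.9 came ATF3 at 19.1 ± 3.87, FOSB at 7.76 ± 1.63, BATF3 at 5.20 ± 0.946 and FOS at 4.95 ± 1.56 (SD, n = 3 each). Among these last, FOS overlapped BATF3 and FOSB, and BATF3 did not overlap FOSB. The abundant AP-1 mRNAs were thus JUNB, JUND, JUN, FOSL1 and FOSL2 in both groups, and FOS was the seventh of the 10 in DMSO and the last in CA4.

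Whether members changed unequally was asked with log2 ratios of 2 members inside each library, each taken after adding 1 normalized count, so that for low genes they still depend a little on the scaling. Of 6 pairs, 3 gave groups that did not overlap, each with a two-sided exact permutation p of 0.1, the smallest that 3 libraries against 3 allow, and 0.2 after Benjamini-Hochberg adjustment over the 6. FOS relative to FOSL1 was -6.10, -5.97 and -5.06 in the DMSO libraries and -7.74, -7.08 and -7.55 in CA4, a difference of -1.75. ATF3 relative to JUND differed by 1.67 and MAFF relative to JUND by 1.437 between groups. The ratios of JUNB to JUND, JUN to JUND and FOSL1 to FOSL2 overlapped between groups, with differences of 0.41, 0.43 and 0.39 and exact permutation p-values of 0.3, 0.4 and 0.5. None of the 6 pairs could reach 0.05 in this permutation test.

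The libraries of a group were not alike in these genes. DMSO replicate 1 was the highest DMSO library in 8 of the 10 members, FOS, FOSB, FOSL1, FOSL2, JUN, JUNB, ATF3 and MAFF, whereas it was the highest in 38.1% of all tested genes. DMSO replicate 3 was the lowest in 7 of the 10, against 31.6% of all tested genes. In CA4, replicate 1 was the highest in 5 members and replicate 2 in 4. The summed level of 6 markers of dividing cells (MKI67, TOP2A, CCNB1, CDK1, PLK1 and BIRC5, all detected) was also highest in DMSO replicate 1, at 10946 normalized counts against 4891 and 5289 in the others, and ran from 2814 to 8722 in CA4. None of the 6 passed the test, and their part in the AP-1 values was not tested.

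**Figure D3:**
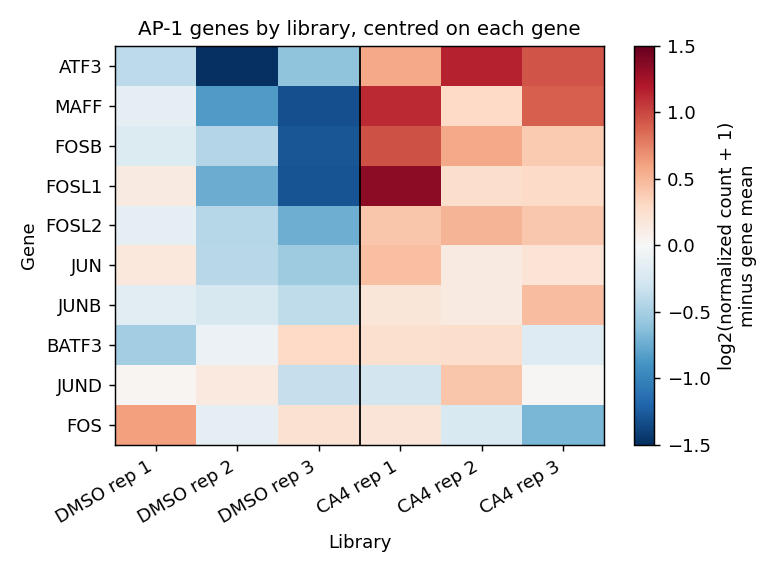
Each AP-1 gene (rows, ordered by log2 fold change) in each library (columns), as log2(normalized count + 1) minus the gene's mean over the 6 libraries. DMSO replicate 1 is nearer to the CA4 libraries than the other DMSO libraries are in FOSB, FOSL1, FOSL2, JUN, JUNB, ATF3 and MAFF. The lowest 3 rows and the JUN row do not part the groups.

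Of the cell markers, 7 of 10 for retinal pigment epithelium reached a mean of 10 normalized counts, and RLBP1, TYR and TYRP1 did not. The summed level of the 10 was 1145 to 1881 in DMSO and 658 to 1066 in CA4. Most of it came from MITF and OTX2, with means of 671 and 389 normalized counts over all libraries. Log2 fold changes were above 0 in PMEL, MERTK and SERPINF1 and below 0 in RPE65, BEST1, MITF and OTX2. Only OTX2, named after its value was seen, was called lower, a call lost in 4 of the 6 fits without 1 library. In an RNA pool from many cells, fewer cells of a type and less RNA per cell cannot be told apart. Of the leukocyte markers, CD3E and TYROBP had no read, PTPRC averaged below 10 normalized counts and CD68 was present. All 4 endothelial markers were read, with sums of 1084 to 1575 in DMSO and of 1406 to 3414 in CA4, highest in CA4 replicate 3, and none was called. CA4 replicate 3 was the highest CA4 library in 1 member, JUNB, and the part of these markers in the JUNB value was not tested.

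Other bZIP genes can share partners or sites with AP-1. Of 18 listed, 14 were tested, 1 was called higher and 1 lower, where 4.94% of all tested genes were called, and the median log2 fold change was 0.12. At an unadjusted p under 0.05, limma counted 3 higher and 2 lower, where 23.0% of all tested genes passed. CREB5, which binds the cyclic AMP response element and pairs with JUN, rose from 188, 65.4 and 106 normalized counts in the DMSO libraries to 480, 350 and 370 in CA4, with no overlap (log2 fold change 1.85, SE 0.36, limma adjusted p = 0.0329). NFE2L2, which encodes NRF2, a partner of small MAF proteins, fell by 0.49 on the log2 scale (SE 0.10, limma adjusted p = 0.0392). Both calls held in 1 of the 6 fits without 1 library, that without DMSO replicate 1. MAFK, the small MAF relative of MAFF, had a log2 fold change of 0.51 (limma adjusted p = 0.0542) and JDP2, a JUN-binding repressor, of 0.95 (limma adjusted p = 0.116), and neither passed. DESeq2 on the recovered reads called both higher, with adjusted p-values of 0.00389 for MAFK and 0.0290 for JDP2, and limma called MAFK among genes that averaged 50 or more (adjusted p = 0.0486).

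Upstream of AP-1, all 25 listed genes of the MAP kinase, serum response factor and related routes were tested. There were 2 called higher, 1 lower and 22 not called, where 4.94% of all tested genes were called, with a median log2 fold change of -0.013. SRF, which binds the CArG box, went from 3116, 2829 and 3261 normalized counts in the DMSO libraries to 4320, 4212 and 4712 in CA4 (log2 fold change 0.53, SE 0.09, limma adjusted p = 0.0207). MAP2K3, a kinase that activates p38, rose by 1.23 (SE 0.24, limma adjusted p = 0.0336). MAP3K1, a kinase above the JUN N-terminal kinases, fell by 0.83 on the log2 scale (SE 0.18, limma adjusted p = 0.0434). Each of these 3 calls was lost in 4 of the 6 fits without 1 library and kept without DMSO replicate 1 and without CA4 replicate 2. MAP3K1 also lost its call with no filter (limma adjusted p = 0.0546) and with quantile normalization (limma adjusted p = 0.0569). ELK1, an SRF partner, had a log2 fold change of 0.40 and missed the threshold (limma adjusted p = 0.104). These are mRNA levels, and kinase activity was not measured.

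Genes commonly described as AP-1 targets were listed from general knowledge, 27 in all, of which 23 were tested. In CA4 11 were called higher, 0 lower and 12 not called, where 2.97% of all tested genes were called higher and 1.97% lower, and the median log2 fold change was 0.80. At an unadjusted p under 0.05, where 23.0% of all tested genes passed, limma counted 16 higher and 1 lower, and edgeR called 0 and DESeq2 1 lower. The 11 calls became 3 without DMSO replicate 3, 4 without DMSO replicate 2 or without CA4 replicate 3, 5 without CA4 replicate 1 and 1 without the variance trend. DUSP1, a phosphatase that switches off MAP kinases, went from 1002, 1061 and 1075 normalized counts in the DMSO libraries to 2859, 3116 and 2898 in CA4 (log2 fold change 1.498, SE 0.08, limma adjusted p = 4.38e-04). F3, tissue factor, went from 7551, 5165 and 4684 to 19673, 14526 and 14390 (log2 fold change 1.497, SE 0.20, limma adjusted p = 0.0122). The DUSP1 call held in each of the 6 fits without 1 library, and F3 lost its call without DMSO replicate 2 or without DMSO replicate 3. CXCL8 and IL6, secreted inflammatory factors, had log2 fold changes of 2.98 (SE 0.37) and 2.61 (SE 0.34), with limma adjusted p-values of 0.0109 and 0.0117, and IL6 lost its call in 1 of those fits. The list was drawn up with earlier results of these data known, so its direction is not independent evidence.

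Of the target list, 18 genes had a promoter window and 5 of these held TGANTCA, named here for that match after their values were seen. They are shown because they display the searched letters in genes of the list that did and did not pass the test. MMP10 held only TGAATCA, whereas CXCL8, IL11, PLAUR and F3 each held TGACTCA or TGAGTCA. Capitals mark the match, with 10 bases on each side, on the gene's strand.
CXCL8, chr4:73740422-73740448, plus strand: ggaagtgtgaTGACTCAggtttgccct
IL11, chr19:55370543-55370569, minus strand: gcagggagggTGAGTCAggatgtgtca
PLAUR, chr19:43670339-43670365, minus strand: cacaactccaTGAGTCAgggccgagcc
F3, distal match, chr1:94541966-94541992, minus strand: gtggcgcggtTGAATCActggggtgag
F3, proximal match, chr1:94541953-94541979, minus strand: atcactggggTGAGTCAtcccttgcag
MMP10, chr11:102780679-102780705, minus strand: aacacatgcaTGAATCAtactgttggt
The PLAUR match lies in a GENCODE 29 exon and the others do not. CXCL8, IL11, PLAUR and F3 were called higher, with log2 fold changes from 1.18 for PLAUR to 2.98 for CXCL8. Leaving out 1 library ended the PLAUR call in 5 of 6 fits and the IL11 call in 3. Scaling to the same total also ended that of PLAUR (limma adjusted p = 0.0538), as did quantile normalization (limma adjusted p = 0.0519). MMP10, a matrix metalloproteinase with 9.50 to 29.9 normalized counts, had a log2 fold change of 0.098 (limma adjusted p = 0.937). Over all tested genes with a window, TGANTCA was present in 3.92% of 10369, in 5.03% of the 318 called higher and in 5.83% of the 223 called lower. TGACGTCA was present in 2.92%, 3.46% and 1.35% of the same 3 sets. Of the listed targets DUSP1 and AREG, a growth factor too low to be tested, held TGACGTCA, in DUSP1 from 125 to 118 bases before its start.

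Other immediate early genes moved in part. Of 24 listed, 23 were tested, 5 were called higher and 0 lower, against 2.97% and 1.97% of all tested genes, and the median log2 fold change was 0.63. At an unadjusted p under 0.05, against 23.0% of all tested genes, limma counted 12 higher and 1 lower, and edgeR and DESeq2 also called 0 lower. The 5 calls became 2 without CA4 replicate 1 or without CA4 replicate 3, 3 without DMSO replicate 2 or without DMSO replicate 3, 8 without DMSO replicate 1 and 2 without the variance trend. SGK1, a serum-induced kinase, rose by 1.78 (SE 0.17, limma adjusted p = 0.00404), NR4A1, a nuclear receptor, by 2.52 (SE 0.26, limma adjusted p = 0.0057) and CCN1, a matrix-associated YAP and SRF target, by 1.07 (SE 0.16, limma adjusted p = 0.0158). IER5 rose by 0.79 (SE 0.14, limma adjusted p = 0.0251). The calls of SGK1 and NR4A1 held in each of the 6 fits without 1 library, while CCN1 lost its call in 2 of them and IER5 in 4. The fifth was PPP1R15A, a stress-induced phosphatase subunit, named after its value was seen, at 0.63 (limma adjusted p = 0.0340), and its call was lost in 5 of the 6 fits and with libraries scaled to the same total (adjusted p = 0.0596). The genes not called included members on both sides of 0.

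Of 15 listed genes that degrade AP-1 proteins or damp the kinases above them, all were tested, 1 was called higher (DUSP1, also on the target list) and 1 lower, where 4.94% of all tested genes were called, and the median log2 fold change was 0.054. At an unadjusted p under 0.05, limma counted 4 higher and 2 lower, against the same 23.0%. DUSP4, a nuclear MAP kinase phosphatase, fell from 430, 524 and 454 normalized counts in the DMSO libraries to 229, 185 and 197 in CA4. All CA4 libraries were lower (log2 fold change -1.20, SE 0.14, limma adjusted p = 0.00901), and the call was lost without DMSO replicate 3, with a limma adjusted p of 0.0506. SPRY4, an inhibitor of growth factor signalling, had a log2 fold change of 1.61 (limma adjusted p = 0.0542) and ITCH, a ubiquitin ligase for JUN proteins, of 0.28 (limma adjusted p = 0.109), and neither passed. DESeq2 called SPRY4 higher (adjusted p = 5.51e-04), and limma did so among genes that averaged 50 or more (adjusted p = 0.0482), without DMSO replicate 1 (adjusted p = 0.0197) and without CA4 replicate 2 (adjusted p = 0.0484).

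**Figure D4:**
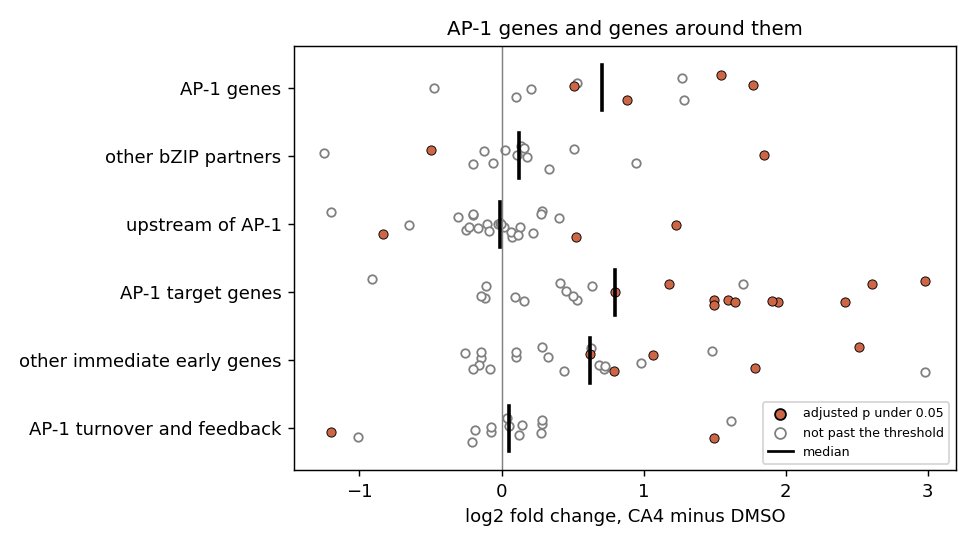
limma log2 fold change of CA4 against DMSO (horizontal axis) for each tested gene of the AP-1 set and of the 5 lists around it (rows); filled points passed an adjusted p of 0.05 and the black bar is the median. The medians are 0.71 for the AP-1 genes, 0.80 for the listed targets, 0.63 for other immediate early genes and between -0.013 and 0.12 for the other 3 lists.

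For 5 members, the genes with the most similar pattern were found among the 11682 tested genes that averaged 50 or more normalized counts. Likeness was the root mean square difference of mean-centred log2(normalized count + 1) over the 6 libraries, where 0 is an identical pattern. JUN was nearest to HSP90AA1 at 0.0214, AFAP1 at 0.0503 and RCE1 at 0.0527. JUNB was nearest to NTN4 at 0.0302, FAM118A at 0.0600 and KRT18 at 0.0601. FOSL1 lay farther from its neighbours, OSBP2 at 0.126, DAW1 at 0.197 and AKAP12 at 0.209. ATF3 had the least close ones, SGK1 at 0.306, NPAS1 at 0.307 and TRPC4 at 0.311. FOS was nearest to CDCA3 at 0.0629, ZNF714 at 0.0660 and XRCC2 at 0.0875, none of which passed the test. In so many genes and only 6 libraries, near matches may be common, which was not tested. Between members the closest pair was JUN and JUNB at 0.223.

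**Figure D5:**
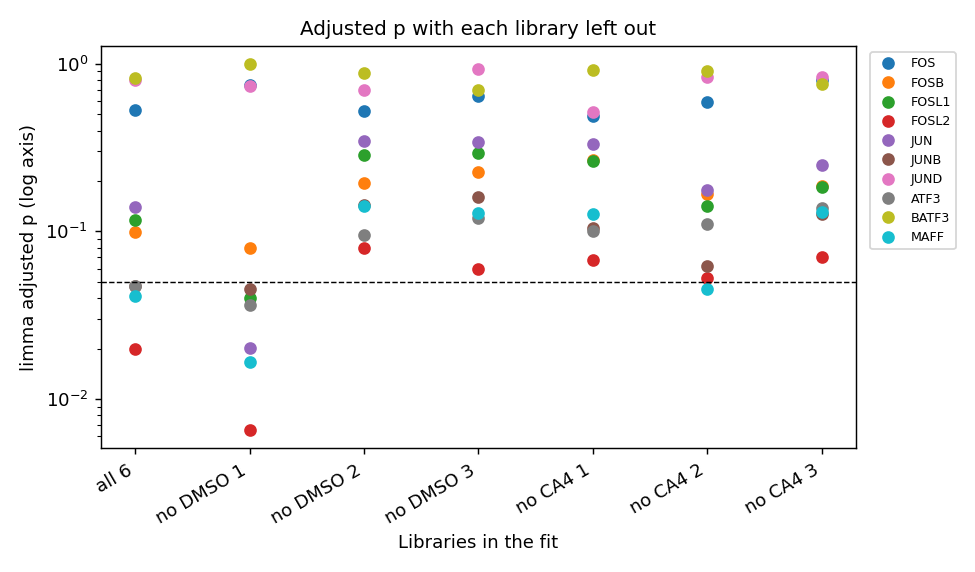
limma adjusted p (vertical log axis) of each AP-1 gene in the fit with all 6 libraries and in the 6 fits that leave out 1 library (horizontal axis); the dashed line is 0.05. Without DMSO replicate 1, 6 genes lie below the line, and without CA4 replicate 2 MAFF alone does.

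The libraries held from 19524936 to 22538004 recovered reads. On the first principal component, with 34.4% of the variance, DMSO replicate 1 lay nearest to the CA4 libraries. Scaling each library to the same total moved the median over all tested genes by -0.10 on the log2 scale and changed the calls from 413 higher and 275 lower to 279 higher and 523 lower. Under it JUNB had a log2 fold change of 0.41 and lost its call (limma adjusted p = 0.0727), while FOSL2, ATF3 and MAFF kept theirs, and 9 of the 10 members stayed above 0.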

How the data were processed

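PolyA RNA of 6 hTERT RPE1 libraries, 3 treated with CA4 and 3 with DMSO, was measured by sequencing, and groups and replicate numbers came from the sample titles. The deposited values are a signal, called normalized counts here, in which the authors divided each library's reads by 1 factor. The roles of the tools are not stated. The submitters' processing notes name Trim Galore 0.6.6, FastQC 0.12.1, Salmon 1.8.0, STAR 2.7.9a, DESeq2 1.44.0 and GRCh38, and the use of strand and the annotation release are not given in the sources used here. In each column 100% of values were whole multiples of the smallest one within 0.01 of a read, so whole reads were recovered, 19524936 to 22538004 per library. They could be rounded estimates. The 95% intervals come from limma and cover the spread between libraries.

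Genes with a mean of at least 10 were tested on log2(normalized count + 1) with limma 3.58.1 in R 4.3.3 (treatment as the only term, mean trend, two-sided, Benjamini-Hochberg over 13928 genes, threshold 0.05). This scale understates changes of low genes. Means carry SD over 3 libraries, and log2 fold changes limma's moderated SE. Ratios inside a library were compared by exact permutation with scipy 1.17.1. edgeR 4.0.16 and DESeq2 1.42.0 on recovered reads, other pseudocounts, filters, scalings and variance priors, a replicate block and leaving out each library were alternatives. The scripts were tested on simulated data, where the share of false calls was above the nominal rate in limma and edgeR and highest in DESeq2. Symbols came from the supplied gene table, with 35803 of 38900 IDs, and from GENCODE 29 for 29 more. Named genes are the 10 members, up to 4 genes per list with the smallest adjusted p, and the 3 most similar genes of 5 members. IL11, PLAUR, MMP10, PPP1R15A, OTX2 and CDH2 were named outside this rule, after their values were seen. So were the directions of RPE65, BEST1, PMEL, MITF, MERTK and SERPINF1. Members and lists were chosen with earlier results of these data known. Protein sequences were not used here. One leukocyte marker is not reported here.

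The labels give libraries of both groups the same replicate numbers but state no shared origin. Libraries with the same number had deviations from their group means that correlated at 0.202, 0.159 and 0.0588, not all above 0.1. Those with different numbers correlated from -0.214 to 0.0741. Pairing was thus not settled, and the main fit did not use it.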

Additional observations from a re-analysis of the deposited data

How the results depend on the processing

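All 10 AP-1 genes rest on 3 libraries a group, and FOS, FOSB, ATF3 and BATF3 on at most 82 reads in any library, which limits what could be detected. The direction of FOS, FOSB, FOSL1, FOSL2, JUN, JUNB, ATF3 and MAFF was kept in every alternative that gave a value. With 1 library left out JUND ran from -0.076 (without CA4 replicate 2) to 0.27, with -0.041 without DMSO replicate 3, and BATF3 from -0.0064 (without DMSO replicate 1) to 0.40, and neither was called in any fit. Against 4 members called, limma called 2 (FOSL2 and MAFF) with no filter on low values and 0 without the variance trend, where 7 had an unadjusted p under 0.05. With 1 library left out the count ran from 0 to 6, and where it was 0 between 5 and 7 members had an unadjusted p under 0.05. edgeR called 3 members and DESeq2 4. Over all genes, against 688 calls, there were 1613 in DESeq2, 103 without the variance trend and 81 to 994 with 1 library left out. The genes on the 5 lists gave 22 calls, 36 in DESeq2, 4 without the trend and 6 to 28 with 1 library left out. Fewer libraries lower the power of a fit. For the rise without DMSO replicate 1, the cause was not tested. With the replicate number as a block, 2397 genes, 7 members (FOSB, FOSL1 and JUN added) and 41 listed genes were called. In that fit the limma adjusted p was 0.0440 for FOSB, 0.00187 for FOSL1 and 0.0136 for JUN. Whether the numbers pair the libraries was not settled. MMP10 ran from -0.35 to 0.43 with 1 library left out, without a call. Of 21 other named genes past the threshold, 4 kept the call in all 6 fits without 1 library.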

Other observations

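Of 7 markers of simple epithelium and mesenchyme, 5 were tested. KRT8, KRT18, VIM, FN1 and CDH2 were read in every library, the lowest value being 8393 for KRT18, while CDH1 and EPCAM, the defining epithelial adhesion genes, averaged under 10 and were not tested. CDH2, N-cadherin, had 12863, 12435 and 12355 normalized counts in the DMSO libraries and 15750, 15231 and 15583 in the CA4 libraries, with no overlap (log2 fold change 0.31, SE 0.07, limma adjusted p = 0.0452). It was named after its value was seen, and the call was lost in 5 of the 6 fits without 1 library, in edgeR (adjusted p = 0.0501) and with libraries scaled to the same total (limma log2 fold change 0.21, adjusted p = 0.121).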
